A study of Mus musculus with 2239 samples.

Results

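The 10 genes described here encode subunits of the transcription factor NF-kB (Nfkb1, Nfkb2, Rel, Relb), its inhibitors and nuclear cofactors (Nfkbia, Nfkbid, Bcl3), regulators that feed back on the pathway (Tnfaip3, Birc3) and a classical target (Icam1). They were taken by name from the 23725 gene rows of a single-cell count table, and all 10 were present. They were followed in the 2055 of 2239 cells that held at least 500 unique molecular identifiers (UMIs, tags that mark each captured mRNA molecule once). The cells had been sorted as regulatory T cells (Tregs), a kind of CD4 T cell defined by the transcription factor Foxp3 that keeps other immune cells in check.

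NF-kB waits in the cytoplasm as dimers held by inhibitor of kappa B proteins, of which the Nfkbia product is the best known. Signals from the T cell receptor and from receptors of the tumor necrosis factor family lead to destruction of the inhibitor, the dimer enters the nucleus, and the Nfkbia and Tnfaip3 genes are themselves switched on, which closes a feedback loop. A second, slower branch processes the Nfkb2 precursor and acts through the Relb product. In Tregs, Rel is known for its part in the start of Foxp3 expression in the thymus, and Nfkbid for helping Foxp3 induction.

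All cells came from 1 library, labelled spleen, of B6 male mice aged 7 months that carried a Foxp3 reporter with green fluorescent protein, sorted as DAPI-negative, TCRb+, CD4+ and GFP+. The labels do not say how many animals were pooled, and the sample type label also names the colon, so it is not settled whether colon cells were loaded too. The library was made with inDrops, which captures the poly(A) end of mRNA in droplets. With 1 library there is no replicate and no test, so every interval below is a 95% interval for counting error only: exact Poisson for a level, exact binomial for a share of cells, exact conditional for a ratio. There were no treated or untreated groups, and the comparisons are between classes of cells within the library.

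The kept cells held 2156277 UMIs in 12952 genes, with a median of 974 UMIs and 551 genes per cell and a highest total of 4329 UMIs, and no barcode occurred more than once. Foxp3 gave a UMI in 29.0% of the cells (27.0 to 31.0), Cd4 in 19.5% and Cd3e, a subunit of the T cell receptor complex, in 10.9%. In the 96 cells with at least 2 UMIs of B cell markers, 5.21% held a Foxp3 UMI at a median of 915 UMIs per cell. Markers of myeloid cells marked 54 cells, of which 16.7% held a Foxp3 UMI at a median of 1084 UMIs, and markers of NK or CD8 T cells marked 19. Doublets were not called or removed.

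The promoters are shown because members of the pathway are known to be switched on by NF-kB itself, and the Nfkbia and Nfkbid genes carry the clearest values below. RefSeq promoters (250 bases before to 50 after a transcription start, build GRCm38.p6) were matched for 8 of the 10 genes, with 13 promoters in all, and Nfkb1 and Relb had no entry. Each was searched on both strands for the 10-letter kappa B consensus, for the AP-1 motif TGANTCA and for the NFAT core GGAAA, which can lie inside a kappa B match. A kappa B match stood in 6 of the 8 genes, against 9.55% of 27025 genes with a promoter in the table, and in the Bcl3 promoter it lay after the start. The AP-1 motif stood in 2 of the 8 genes, against 8.97% of all, and the NFAT core in 8 of 8, against 64.5%. In the sequences below, written 5′ to 3′ on the strand of the gene, capitals mark kappa B matches, and adjoining or overlapping matches are marked as 1 run. For Nfkb2 and Tnfaip3 the stretch around the first match before a start is shown, and other matches are not.
Nfkbia: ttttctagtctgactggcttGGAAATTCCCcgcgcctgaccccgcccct
Nfkbid: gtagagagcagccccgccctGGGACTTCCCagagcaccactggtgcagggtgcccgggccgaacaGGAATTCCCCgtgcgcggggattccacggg
Nfkb2: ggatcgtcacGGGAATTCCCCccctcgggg
Rel: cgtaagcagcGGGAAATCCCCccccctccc
Tnfaip3: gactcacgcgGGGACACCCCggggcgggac

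The Nfkbia stretch lies at chr12:55492648-55492696 on the minus strand, directly upstream of the gene (chr12:55489410-55492647), and its match begins 29 bases before the start. The Nfkbid stretch, at chr7:30422160-30422254 on the plus strand, precedes the second of 3 RefSeq starts and lies in an intron of a longer annotated transcript of the gene (chr7:30421732-30428746). Its matches begin 226 and 181 bases before that start. The Nfkb2 site (chr19:46304688-46304717, plus strand) falls in the 5′ UTR of another annotated transcript of that gene. Nfkb2 also held a match 11 bases before that same start, and matches 236 and 225 bases before its other RefSeq starts. The Rel site (chr11:23771042-23771071, minus strand) is upstream of every annotated transcript of Rel, and the Tnfaip3 site (chr10:19015516-19015545, minus strand) is in an intron of a longer one, with a further match 12 bases before the same start. A match describes letters only, and binding was not measured here.

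At least 1 UMI of the 10 genes was found in 1240 of the 2055 cells (60.3%, 58.2 to 62.5), and together the genes gave 2578 UMIs, or 1196 CPM (UMIs pooled over cells and scaled to a total of 1000000; 1150 to 1243). Most of that signal was Nfkbia and Nfkb1: without Nfkbia 42.6% of the cells held a UMI of the other members, and without both genes 26.4%. Detection was limited by depth. When every cell was thinned to 500 UMIs, the share with any member fell to 41.3%.

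Among the subunits, Nfkb1, which encodes a precursor of a DNA-binding subunit, was captured most: 559 UMIs, 259 CPM (238 to 282), in 474 cells (23.1%). Nfkb2, its counterpart in the slower branch, gave 131 UMIs and 60.8 CPM (50.8 to 72.1) in 125 cells (6.08%). Its gene overlaps Psd on the other strand, and the strand used for counting was not given in the sources used here. Relb, the partner of the processed Nfkb2 product, gave 75 UMIs and 34.8 CPM (27.4 to 43.6) in 72 cells (3.50%). Rel gave 18 UMIs in 16 cells (0.779%), 8.35 CPM (4.95 to 13.2), which is under the 20 UMIs set here for a measured gene, so its ratios are given without a call. Rela, which encodes the remaining subunit and was listed with the wider pathway, gave 122 CPM in 12.1% of the cells.

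Nfkbia was the most captured member, with 1301 UMIs, 603 CPM (571 to 637), in 755 cells (36.7%). It was spread unevenly: 482 cells held 1 UMI, 273 held 2 or more and the highest cell held 10. Nfkbid and Bcl3 encode nuclear relatives of the inhibitor that bind NF-kB dimers on DNA. Nfkbid gave 107 UMIs and 49.6 CPM (40.7 to 60.0) in 83 cells (4.04%), of which 72 held 1 UMI and the highest 6. Bcl3 gave 133 UMIs and 61.7 CPM (51.6 to 73.1) in 120 cells (5.84%), with no cell above 2.

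Tnfaip3 encodes a ubiquitin-editing enzyme that shuts the pathway down, and it gave 96 UMIs, 44.5 CPM (36.1 to 54.4), in 91 cells (4.43%). Birc3, a ubiquitin ligase of tumor necrosis factor receptor complexes, gave 107 UMIs, 49.6 CPM (40.7 to 60.0), in 103 cells (5.01%). Icam1, an adhesion molecule that binds an integrin on leukocytes, was scarcer, with 51 UMIs and 23.7 CPM (17.6 to 31.1) in 48 cells (2.34%). In order of captured molecules, the intervals of Nfkbia, Nfkb1 and the next gene did not overlap, whereas those of Bcl3, Nfkb2, Nfkbid, Birc3 and Tnfaip3 did. UMIs count captured transcript ends and are not scaled to length, so this order mixes mRNA level with capture.

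**Figure D1:**
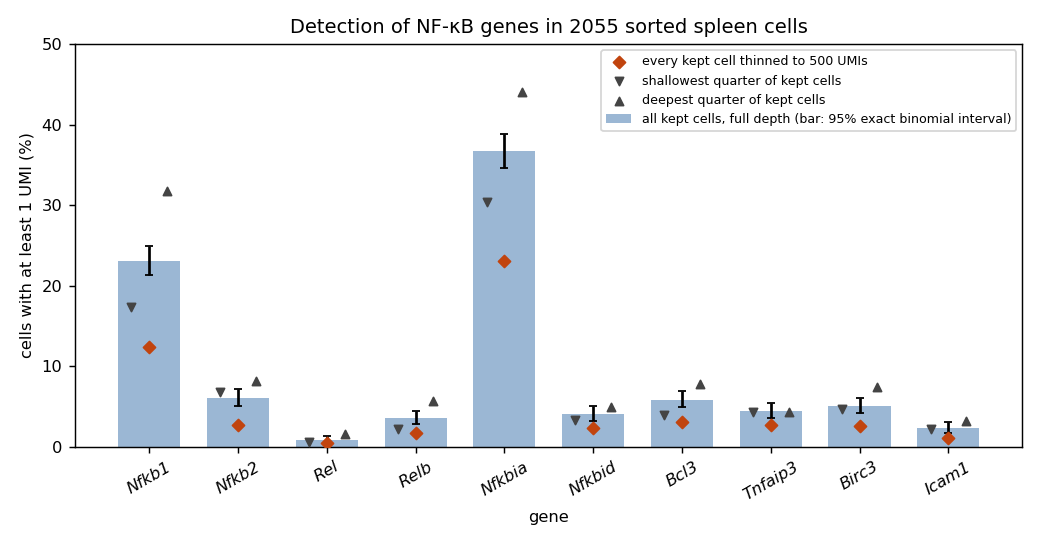
Share of the 2055 kept cells with at least 1 UMI of each gene (bars, with 95% exact binomial intervals), beside the share after thinning every cell to 500 UMIs (diamonds) and the shares in the 514 shallowest and the 513 deepest cells (triangles). Nfkbia, at 36.7%, and Nfkb1, at 23.1%, stand above the other genes, and their shares are higher in the deepest cells.

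The plot of detection shows how far depth sets these shares. From the 514 shallowest cells (median 683 UMIs) to the 513 deepest (median 1442), the share with Nfkb1 went from 17.3% to 31.8% and that with Nfkbia from 30.4% to 44.1%. The levels went the other way for Nfkbia, from 733 to 503 CPM, and for Tnfaip3 from 66.6 to 27.1 CPM, while Nfkb1 stood at 278 and 256 CPM. Because the classes compared next were slightly deeper than the other cells, levels were compared as CPM and shares also after thinning.

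Cells with and without a Foxp3 UMI were alike in the summed level of the members, at 1222 CPM (1138 to 1311) in 595 cells and 1184 CPM (1130 to 1240) in 1460 cells. Relb gave a ratio of 1.57 (0.958 to 2.55) and Nfkbia 1.07 (0.950 to 1.21). The interval of the ratio held 1 for each of the 10 genes, and this was not counted over all genes. All cells were sorted for the Foxp3 reporter, and Foxp3 gave a UMI in 29.0% of them. A cell without a Foxp3 UMI is therefore not shown to lack Foxp3, and this split says little about Foxp3 itself. B cell-marked cells held more Nfkb2 than other cells, 2.14-fold (1.11 to 3.80), and 5 of the 18 UMIs of Rel. NF-kB genes are used by all leukocytes, so no cell type here serves as a blank for them.

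The first class held the 423 cells (20.6%) with at least 1 UMI of Tnfrsf4 or Tnfrsf9, receptors of the tumor necrosis factor family that activated Tregs carry and that signal to NF-kB. Tnfrsf4 was found in 327 of them and Tnfrsf9 in 164, and 282 cells were in the class by a single UMI. Their median depth was 1030 UMIs against 952 in the 1632 cells without. Of the 9 members measured (at least 20 UMIs in all and at least 5 expected in the class), 5 were at least 1.5-fold higher and 1 at least 1.5-fold lower. Over the 7589 genes measured in the same way, 11.4% were that much higher and 10.4% that much lower. The median log2 ratio of the members was 0.60, beside 0.05 over all measured genes.

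Nfkbid stood at 78.3 CPM (55.7 to 107) in the class and 41.0 CPM (31.9 to 52.0) in the cells without, a ratio of 1.91 (1.25 to 2.87). Bcl3 stood at 96.4 CPM (71.1 to 128) against 51.3 CPM (41.0 to 63.4), a ratio of 1.88 (1.29 to 2.71). Nfkb2 stood at 94.4 CPM (69.3 to 126) against 50.7 CPM (40.4 to 62.7), a ratio of 1.86 (1.28 to 2.69). The intervals of the levels in and out of the class did not overlap for these 3 genes, nor for Nfkbia and Nfkb1 below. The share of all measured genes with such intervals was not counted. The share of cells with a UMI was 6.86% against 3.31% for Nfkbid, 9.93% against 4.78% for Bcl3 and 9.93% against 5.09% for Nfkb2. Thinned to 500 UMIs, these shares were 4.02% against 1.84%, 4.49% against 2.64% and 4.02% against 2.27%, and for each gene the intervals of the thinned shares overlapped.

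The abundant members differed less but with narrow intervals. Nfkbia was at 825 CPM (747 to 909) against 537 CPM (502 to 573), a ratio of 1.54 (1.36 to 1.73), and was found in 44.4% against 34.7% of the cells. Nfkb1 was at 345 CPM (296 to 401) against 233 CPM (211 to 258), a ratio of 1.48 (1.23 to 1.78), just under the 1.5-fold line. Tnfaip3 (1.51, 0.949 to 2.36) lay just above the line and Relb (1.47, 0.860 to 2.45) just below, both with intervals that held 1. Birc3 was level at 1.02 (0.621 to 1.61). Icam1 was the member below, with 7 UMIs in the class and 44 outside, a ratio of 0.530 (0.201 to 1.19) whose interval also held 1.

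The class held less B cell and myeloid RNA than the cells without. Summed B cell markers were at 82.3 CPM against 1251 CPM, and myeloid markers at 131 CPM against 780 CPM. Of its cells 7 (1.655%) were myeloid-marked, against 2.88% of the others. All 8 measured B cell markers and all 7 measured myeloid markers were at least 1.5-fold lower, and Ms4a1, Pax5, Ebf1, Lyz2, Cd68, Itgam, S100a8 and S100a9 were at 0 in the class. Without the cells marked for B cells, myeloid cells, NK cells or CD8 T cells, the ratios were 2.09 (1.32 to 3.26) for Nfkbid, 1.95 (1.33 to 2.85) for Bcl3, 2.04 (1.37 to 3.03) for Nfkb2, 1.498 (1.32 to 1.69) for Nfkbia and 1.52 (1.26 to 1.83) for Nfkb1. Markers of Tregs were together 1.40-fold higher in the class (1.33 to 1.48). Of the 8 measured, 4 passed the 1.5-fold line upward (Ikzf2, Ctla4, Tnfrsf18 and Lrrc32) and 0 downward. Il2ra was level at 1.03 (0.8997 to 1.18). Foxp3 had a UMI in 33.8% against 27.7% of the cells, at 413.5 CPM against 358.8 CPM. A list of dissociation stress genes was 1.23-fold higher in sum (1.17 to 1.295). Of its 12 measured genes 2, Hsp90aa1 and Hspd1, passed the 1.5-fold line upward and 0 downward. The part of cell handling in the ratios was not tested. Proliferation markers stood at 203 CPM against 72.4 CPM, and without the proliferation-marked cells 5 members stayed above the line, with log2 ratios of 1.06 for Nfkbid, 0.93 for Bcl3, 0.87 for Nfkb2 and 0.61 for Nfkbia. Among cells with a Foxp3 UMI alone, a subset chosen after the data were seen, the log2 ratio of Birc3 was -1.49 in place of 0.02, and Bcl3 (0.39) and Nfkbia (0.49) fell under the 1.5-fold line. Nfkbid fell under it in cells with at least 1000 UMIs (0.38), and Nfkb2 stayed above it in every alternative tried.

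**Figure D2:**
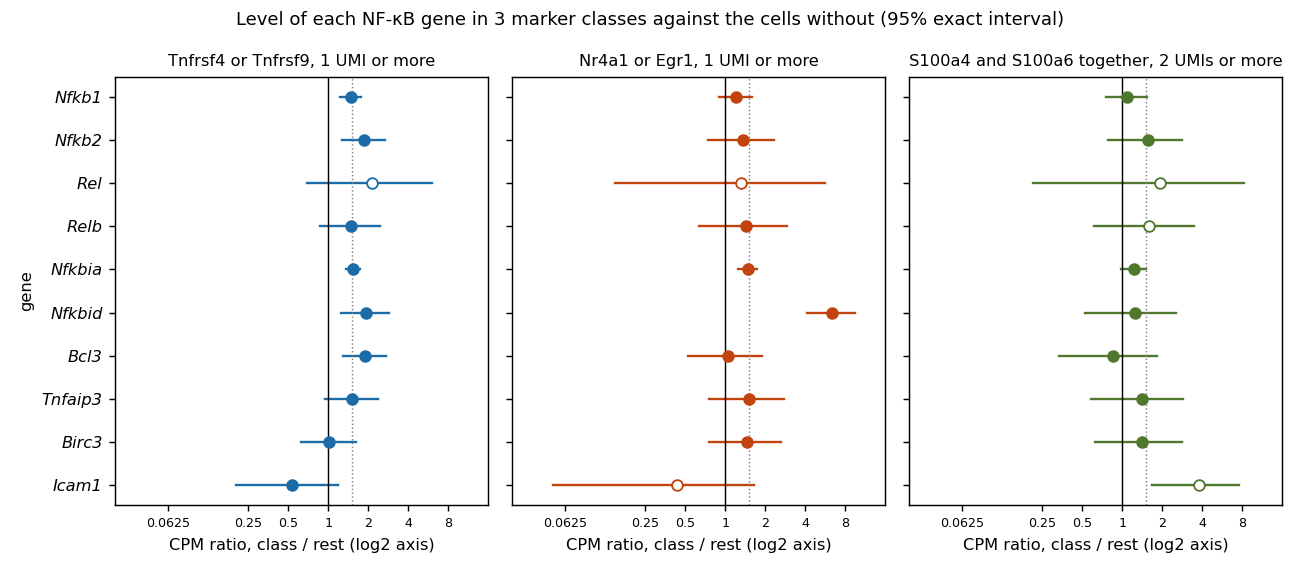
Ratio of the level (CPM) of each gene in a class to the level in the cells without, on a log2 axis, for the 3 classes; lines are 95% exact intervals for counting error, open circles are genes under the measuring limit, and the dotted line marks 1.5-fold. Nfkbid at 6.29 in the Nr4a1 or Egr1 class stands farthest to the right among the filled circles.

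Levels were also read by the number of receptor UMIs in a cell, and Nfkb1 and Nfkb2 were the measured members with a higher level at every step. Nfkb2 was at 50.7 CPM with 0 UMIs of Tnfrsf4 and Tnfrsf9, 64.1 CPM (39.2 to 99.1) with 1, 111 CPM (59.1 to 190) with 2 and 202 CPM (111 to 339) with 3 or more. Nfkb1 went through the same steps at 233, 295, 393 and 491 CPM (340 to 686). Only 94 cells held 2 receptor UMIs and 47 cells held 3 or more, and cells with more UMIs of any gene are deeper (median 1303 UMIs in the last group). The other measured members did not keep this order. Nfkbia stood at 537, 750, 1016 and 838 CPM, Nfkbid at 41.0, 51.3, 128 and 116 CPM, and Bcl3 at 51.3, 93.0, 128 and 57.8 CPM (15.7 to 148).

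Cells were also split by which receptor they held. Nfkb2 was at 63.0 CPM (37.3 to 99.5) in the 259 cells with Tnfrsf4 alone, 110 CPM (58.6 to 188) in the 96 cells with Tnfrsf9 alone and 170 CPM (97.0 to 276) in the 68 cells with both. Nfkbid did not follow that order and was at 66.5, 42.4 and 159 CPM (89.1 to 263) in the same cells. Nfkbia did not follow it either and stood at 896 CPM (789 to 1012), 720 CPM (575 to 890) and 743 CPM (579 to 938). The intervals of the groups with Tnfrsf4 alone and Tnfrsf9 alone overlapped for each of these genes.

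The second class held the 152 cells (7.40%) with a UMI of Nr4a1 (119 cells) or Egr1 (61 cells), immediate early genes that T cell receptor signals switch on quickly. Its median depth was 1072 UMIs against 965 in the 1903 cells without, and 94 cells were in it by 1 UMI. Among the 8 measured members, 2 passed the 1.5-fold line upward and 0 downward, against 11.5% upward and 12.3% downward of 4850 genes. The median log2 ratio of the members was 0.53, beside 0.03 over all measured genes. The member with the highest ratio was Nfkbid.

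Nfkbid gave 40 UMIs in the class and 67 in all other cells, 214 CPM (153 to 292) against 34.0 CPM (26.4 to 43.2), a ratio of 6.29 (4.14 to 9.45). It was found in 23 of the 152 cells (15.1%, 9.84 to 21.8) and in 60 of the 1903 others (3.15%, 2.41 to 4.04). Thinned to 500 UMIs the shares were 11.2% and 1.58%. The intervals did not overlap on either scale, and 99.9% of the genes measured had a lower ratio or the same.

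The level of Nfkbid was 34.0 CPM in cells with 0 UMIs of Nr4a1 and Egr1, 113 CPM (59.9 to 192) in the 94 cells with 1, and 577 CPM (377 to 846) in the 39 cells with 3 or more, where 33.3% held it. The 19 cells with 2 UMIs gave a single Nfkbid UMI, 38.1 CPM (0.964 to 212), so the steps were not in order. Of the 26 Nfkbid UMIs in the 39 cells with 3 or more, 6 came from 1 B cell-marked cell. Nfkbid was at 154 CPM (91.0 to 243) in cells with Nr4a1 alone, 226 CPM (97.6 to 446) with Egr1 alone and 409 CPM (224 to 687) with both. Each of these levels lay above the 34.0 CPM of cells with neither, and their intervals overlapped each other. The same B cell-marked cell gave 6 of the 18 Nfkbid UMIs in cells with Nr4a1 alone. These steps and splits were not read again without marked cells.

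**Figure D3:**
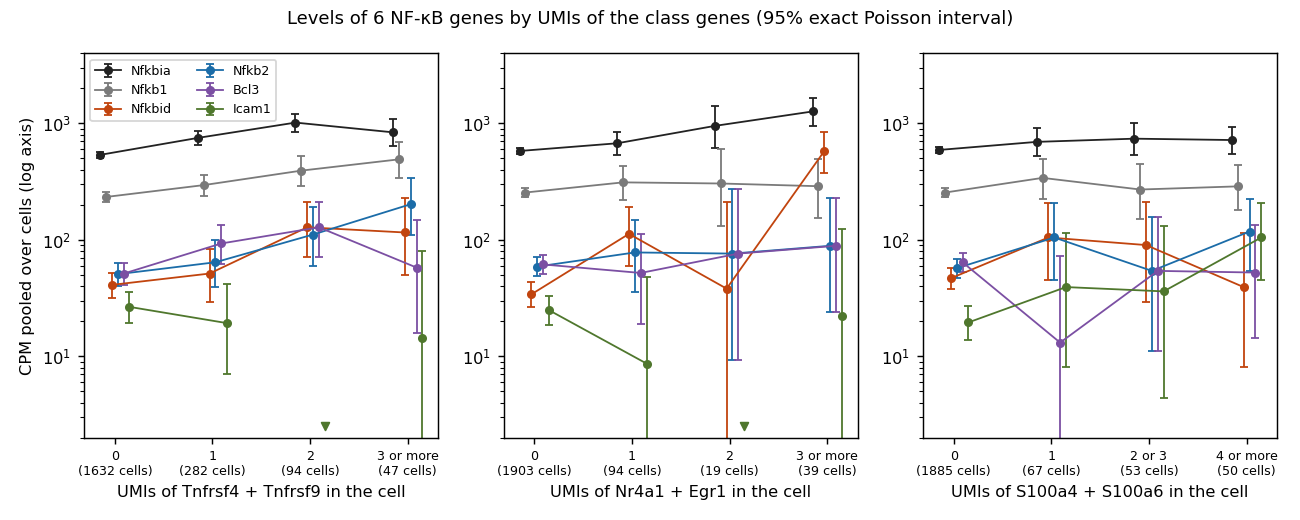
Levels (CPM pooled over cells, log axis) of 6 genes by the number of UMIs of the class genes in a cell, with the number of cells under each step and 95% exact Poisson intervals; a triangle at the floor marks 0 UMIs. Nfkbid reaches 577 CPM with 3 or more UMIs of Nr4a1 and Egr1, while Nfkb1 stays between 255 and 312 CPM in the same panel. Of the 26 Nfkbid UMIs at that step, 6 came from 1 B cell-marked cell.

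Nfkbia was the other member with an interval above 1 in this class, at 856 CPM (729 to 1000) against 579 CPM (546 to 614), a ratio of 1.48 (1.25 to 1.75). Tnfaip3 (1.51, 0.748 to 2.77) passed the 1.5-fold line on 12 UMIs in the class. Birc3 (1.46, 0.748 to 2.62), Relb (1.44, 0.630 to 2.90), Nfkb2 (1.36, 0.739 to 2.34), Nfkb1 (1.20, 0.894 to 1.58) and Bcl3 (1.05, 0.526 to 1.89) did not, and all of their intervals held 1. Icam1, with 2 UMIs in the class, and Rel were not measured. The plot of ratios shows Nfkbid apart from these genes in this class.

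Myeloid markers moved with this class: each of the 7 measured passed the 1.5-fold line upward, their sum was 2183 CPM (4.52-fold, 4.02 to 5.08), and 14 of the 152 cells (9.21%) were myeloid-marked against 2.10% of the others. Of 12 measured genes of the dissociation stress list, such as Junb, Ier2 and Dusp1, 7 were at least 1.5-fold higher, and the part of cell handling in these ratios was not tested. The Nfkbid ratio was as large without the cells marked for B cells, myeloid cells, NK cells or CD8 T cells, at 6.90 (4.34 to 10.8), with 33 UMIs in 133 cells and 55 in 1774. Nfkbia was then at 1.52 (1.27 to 1.82). Thus 33 of the 40 Nfkbid UMIs of the class were in cells not marked for another type.

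Those 23 cells held Nfkbia at 1840 CPM (1379 to 2407), against 677 CPM (555 to 818) in the 129 cells of the class without Nfkbid. Outside the class, Nfkbia was at 940 CPM (721 to 1205) in the 60 cells with Nfkbid and 567 CPM (534 to 602) in the 1843 cells without. In both settings the cells with Nfkbid held more Nfkbia, and the intervals did not overlap. Foxp3 was found in 5 of the 23 cells and in 41 of the 129, with levels of 174 CPM (56.4 to 405) and 348 CPM (262 to 453) whose intervals overlapped.

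The third class held the 103 cells (5.01%) with at least 2 UMIs of S100a4 and S100a6 together, calcium-binding proteins that mark effector and tissue-type T cells and also myeloid cells. Just inside the threshold 35 cells held 2 UMIs, and just outside 67 held 1. Among 7 measured members, 1 passed the line upward and 0 downward, against 21.0% upward and 14.4% downward of 3686 genes. The median log2 ratio was 0.31, beside 0.11 over all measured genes.

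The 1 member past the line was Nfkb2, at 91.0 CPM (47.0 to 159) against 58.8 CPM (48.7 to 70.3), a ratio of 1.55 (0.778 to 2.81) on 12 UMIs whose interval held 1. It stood at 1.07 (0.383 to 2.40) without the cells marked for other cell types, and its direction turned in thinned cells (log2 ratio -0.48) and among cells with a Foxp3 UMI (-0.66). Nfkbia was at 728 CPM (590 to 889) against 595 CPM (562 to 630), a ratio of 1.22 (0.983 to 1.51). Birc3 (1.41), Tnfaip3 (1.40), Nfkbid (1.24), Nfkb1 (1.09) and Bcl3 (0.853) also had intervals that held 1. Without the cells marked for other cell types, the interval of Nfkbia lay above 1, at a ratio of 1.36 (1.07 to 1.70).

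Icam1, which fell short of the measuring limit with 10 UMIs in the class and 41 outside, stood at 75.8 CPM (36.4 to 139) against 20.3 CPM (14.5 to 27.5), a ratio of 3.74 (1.67 to 7.60). It was found in 9 of the 103 cells (8.74%) and in 1.998% of the others. With 4 or more UMIs of S100a4 and S100a6 it reached 105 CPM (45.2 to 206), against 19.5 CPM (13.8 to 26.8) with 0. Icam1 was at 39.3 CPM (8.10 to 115) with 1 UMI and 36.1 CPM (4.37 to 130) with 2 or 3. Both intervals overlapped that of the cells with 0. The 50 cells with 4 or more, at a median depth of 1356 UMIs, held 8 of the 10 Icam1 UMIs of the class. After thinning, the share of cells with Icam1 was 3.88% (1.07 to 9.65) against 0.871% (0.508 to 1.39), with overlapping intervals. Myeloid markers were 18.3-fold higher in the class (16.4 to 20.4; 7 of 7 measured), 16.5% of its cells were myeloid-marked, and ribosomal protein genes took 24.8% of its UMIs against 36.1%. Proliferation markers were 9.97-fold higher (7.52 to 13.2; 5 of 5 measured), at 660 CPM against 66.2 CPM. The B cell list was 2.18-fold higher in sum, with H2-Aa, H2-Ab1 and H2-Eb1 above the line and Cd79a, Cd79b and Ms4a1 below it. Of the 12 measured stress genes 5 passed the line upward and 1, Hspe1, downward. The stress list in sum was level, at a ratio of 0.986 (0.8955 to 1.083). The part of these lists in the ratios of the class was not tested beyond leaving out marked cells. Without the cells marked for B cells, myeloid cells, NK cells or CD8 T cells the Icam1 ratio was as large, 4.19 (1.68 to 9.16), on 8 UMIs in 81 cells.

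The classes overlapped. Of the Nr4a1 or Egr1 class, 55 cells (36.2%) were also in the receptor class, which held 20.6% of all cells, and these made up 13.0% of the receptor class. Of the S100 class, 26 cells (25.2%) were in the receptor class and 13 cells (12.6%) in the Nr4a1 or Egr1 class. The 3 comparisons therefore share cells on both sides, and their ratios stand side by side here without being compared by a test. The summed members were at 1028 CPM (977 to 1082) in the 1467 cells of no class, 1467 CPM (1370 to 1570) in the 502 cells of 1 class, and 1863 CPM (1619 to 2134) in the 82 cells of 2. The 4 cells in all 3 classes gave 3250 CPM (2082 to 4835). Median depth rose in the same order, at 943, 1016, 1118 and 1674 UMIs. Other sets of genes were not read this way, so the order has no background here.

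Shares of cells with Nfkbid and Nfkb2 were also read by combination of classes, without intervals. In the 88 cells of the Nr4a1 or Egr1 class alone, 13.6% held Nfkbid and 5.68% Nfkb2. In the 346 cells of the receptor class alone, 4.91% held Nfkbid and 9.25% Nfkb2. In the 51 cells of both these classes and not the third, the shares were 19.6% and 13.7%. In cells of no class they were 2.66% and 4.77%. Over the whole classes, Nfkb2 was found in 9.87% of the Nr4a1 or Egr1 class and in 9.93% of the receptor class. The same shares for Nfkbid were 15.1% and 6.86%. The difference between the patterns was not tested.

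Cells with UMIs of several members were a larger share of each class than of the cells without. At least 2 of the 10 genes had a UMI in 24.4% of all cells (22.5 to 26.3), in 37.6% of the receptor class (33.0 to 42.4) against 21.0% of the cells without, in 35.5% of the Nr4a1 or Egr1 class (27.9 to 43.7) against 23.5%, and in 35.9% of the S100 class (26.7 to 46.0) against 23.8%. After thinning to 500 UMIs the values were 14.7% (11.4 to 18.4) against 7.48% (6.25 to 8.86), 12.5% (7.70 to 18.8) against 8.67% (7.44 to 10.03) and 13.6% (7.64 to 21.8) against 8.71% (7.495 to 10.05). In thinned cells the intervals were apart for the receptor class and overlapped for the other classes. These shares were not counted for other sets of genes, so they have no background here and are not read as a trait of the members. The highest number of members in a cell was 6.

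**Figure D4:**
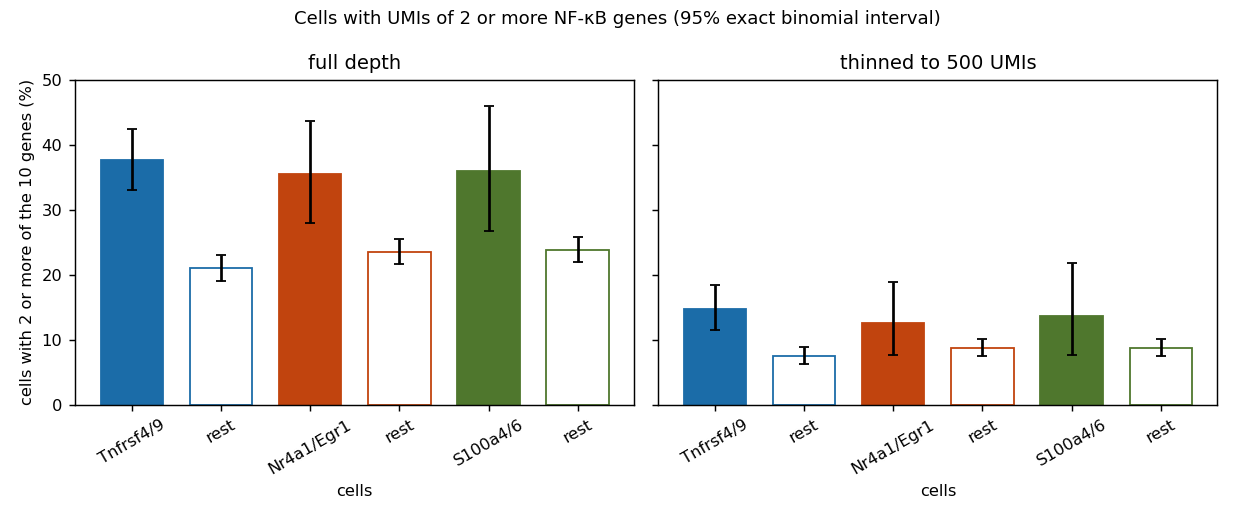
Share of cells with UMIs of 2 or more of the 10 genes in each class (filled) and in the cells without (open), at full depth and thinned to 500 UMIs, with 95% exact binomial intervals. The receptor class stands at 37.6% against 21.0% at full depth and at 14.7% against 7.48% after thinning. Other sets of genes were not counted.

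Pairs of members were counted against the number expected if detection were independent within each of 10 depth bins. Of 45 pairs, 23 had at least 5 cells expected. Of these, 21 were seen together in more cells than expected and 2 in fewer. Observed over expected had a median of 1.27 and ran from 0.862 in the lowest pair to 2.995 in the highest. The same count was not made over pairs of other genes, so it has no background here and is not read as a trait of the members. The pair farthest above was Nfkb2 and Relb, partners in the slower branch: 15 cells held both where 5.01 were expected, and 20.8% of cells with Relb held Nfkb2 (12.2 to 32.0) against 5.55% of cells without (4.58 to 6.65). In thinned cells the pair was in 3 cells, with 0.950 expected, too few to read. Nfkbia and Nfkbid were together in 51 cells where 31.8 were expected, and in 24 thinned cells where 10.9 were expected. Of cells with Nfkbid, 61.5% held Nfkbia (50.1 to 71.9), against 35.7% of cells without (33.6 to 37.9).

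Several other pairs were also above the expected number. Bcl3 and Tnfaip3 were together in 10 cells where 5.49 were expected, but in 1 thinned cell where 1.78 were expected. Nfkb2 was together with Tnfaip3 in 10 cells where 5.73 were expected, with Birc3 in 11 where 6.84 were expected and with Nfkbia in 64 where 47.4 were expected. Nearer to the expected number, Nfkb1 and Nfkbia, the most captured members, were together in 194 cells where 179 were expected, and Nfkb1 and Bcl3 in 25 where 29.0 were expected. With the class genes, Nfkbid was together with Nr4a1 in 18 cells where 5.41 were expected and with Egr1 in 13 where 2.63 were expected. Nfkb2 was together with Tnfrsf9 in 25 cells where 11.7 were expected. Rel was never seen with Nfkb2, Relb or Bcl3, and for these 3 pairs no more than 1.14 cells were expected.

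**Figure D5:**
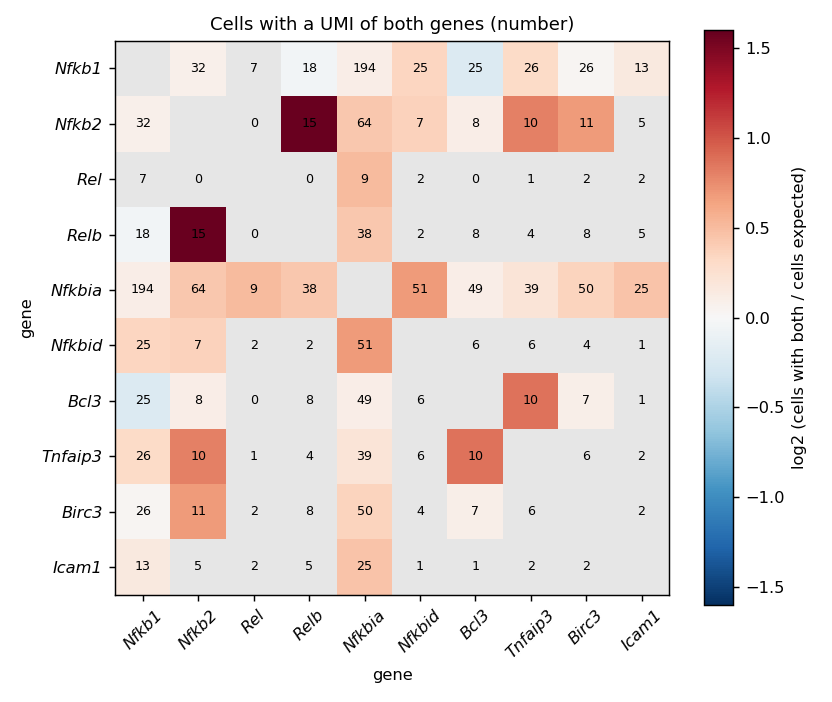
Number of cells with a UMI of both genes (printed) for each pair, colored by the log2 of observed over expected cells; grey squares are pairs with fewer than 5 expected cells and the diagonal. Nfkb2 with Relb is the darkest square, at 15 cells.

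Across the 2055 cells, the genes most like the summed members among 3125 genes with at least 100 UMIs were, by Pearson correlation of residuals, Cd83 (0.25), Junb (0.21), Batf (0.19), Tnfrsf4 (0.19), Dusp2 (0.17), Tnfrsf9 (0.17), Cd82 (0.16), Ltb (0.16), Zfp36l1 (0.15) and Ier5 (0.14). All come from 1 library and share its depth, and correlations of this size in sparse counts describe the order only. Of the 151 cells with a Cd83 UMI, 76.2% held a UMI of a member, beside 60.3% of all cells.

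The wider pathway was read from 66 further genes: other subunits and inhibitors, kinases and adaptors, brakes, receptors and textbook targets. In the receptor class 17 of 59 measured genes passed the 1.5-fold line upward and 4 downward, beside 11.4% upward and 10.4% downward of all measured genes, with a median log2 ratio of 0.23 beside 0.05. The highest were the stress and survival gene Gadd45b (3.79, 2.23 to 6.47), the activation marker Cd83 (3.63, 2.74 to 4.80), the survival gene Bcl2l1 (3.11, 1.81 to 5.34) and Ebi3, a cytokine subunit made by Tregs (2.59, 1.19 to 5.51). The lowest were Cd74 (0.138, 0.0923 to 0.198), which B cells and myeloid cells express strongly, and Map3k14, the kinase of the slower branch (0.180, 0.0210 to 0.698; 2 UMIs in the class). Rela was level at 1.01 (0.746 to 1.35).

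In the Nr4a1 or Egr1 class 14 of 47 passed the line upward and 0 downward, beside 11.5% and 12.3% of all measured genes, with a median of 0.38 beside 0.03. The survival genes Bcl2a1d (5.71, 3.76 to 8.54), Bcl2a1b (4.81, 3.26 to 7.00) and Bcl2l1 (3.51, 1.82 to 6.42) led, followed by the kinase Ripk1 (2.40, 1.21 to 4.44). Bcl2a1b and Bcl2a1d are near-identical copies whose reads the counting could split, so their separate values are uncertain. The pathway genes were not read again without the cells marked for other cell types. Myeloid markers were 4.52-fold higher in this class and 18.3-fold higher in the S100 class. The part of such cells in the pathway ratios was not tested. In the S100 class 13 of 35 passed upward and 4 downward, beside 21.0% and 14.4% of all measured genes, with a median of 0.23 beside 0.11. Its highest were the costimulatory receptor Icos (9.02, 7.01 to 11.6), the adhesion receptor Cd44 (5.22, 3.72 to 7.22), the receptor Tnfrsf1b (3.72, 2.67 to 5.11) and Bcl2a1b (2.54, 1.47 to 4.14), and its lowest were Myc (0.330, 0.0890 to 0.859) and Prkcq, the kinase that links the T cell receptor to NF-kB (0.422, 0.223 to 0.728).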

How the data were processed

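Whole-number UMI counts per gene and cell, with no normalization, were deposited by the authors as 1 table, and each labelled sample is 1 cell of 1 library. The submitters' processing notes name TopHat2, SAMtools and the mm10 build without versions; the counting annotation was not given in the sources used here. Cells with at least 500 UMIs were kept and 184 set aside; doublets were kept. Levels are UMIs pooled over cells per 1000000 (CPM). Ratios used genes with at least 20 UMIs and 5 expected in the class, a 1.5-fold line, and a floor of 3 UMIs over the class where a count was 0; the ratio step was tested on simulated data. Marked cells held at least 2 UMIs of a marker list. Residuals for correlations used an overdispersion of 100. Python 3.11.15, numpy 2.4.6, scipy 1.17.1 and pandas 2.3.3 were used. The members, classes and lists were chosen with earlier results of these data known. Named genes were the members, the class genes, up to 4 highest and 2 lowest pathway genes past the line per class and the 10 most similar genes; Rela, the marker genes and the other member pairs were named after their values were seen. Positions are from GENCODE M21 on GRCm38, the build called mm10.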

Additional observations from a re-analysis of the deposited data

Results flagged for a closer look

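The 184 cells with fewer than 500 UMIs, which no comparison used, also held the members: 99 UMIs, or 1401 CPM (1138 to 1705). Of these UMIs 58 were Nfkbia, at 821 CPM (623 to 1061), and 21 were Nfkb1, at 297 CPM (184 to 454). In the kept cells the same genes stood at 603 CPM (571 to 637) and 259 CPM (238 to 282), and the 514 shallowest kept cells held Nfkbia at 733 CPM. Rel was at 0 in these cells.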

How the results depend on the processing

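Nfkbid in the Nr4a1 or Egr1 class kept its direction and stayed past 1.5-fold: its log2 ratio of 2.65 ranged from 2.43 (its highest cell left out) to 3.30 (class threshold 1 UMI higher) over 12 alternatives. Counts near the 1.5-fold line were not stable. The 5 of 9 members in the receptor class became 3 without ribosomal UMIs in the total and 0 at a 2-fold line. The 2 of 8 members in the Nr4a1 or Egr1 class became 6 with a minimum of 1000 UMIs, 4 with depth bins combined or a class threshold 1 UMI higher, and 1 without ribosomal UMIs, with means of per-cell CPM or at 2-fold. The 1 of 7 members in the S100 class became 4 with a minimum of 1000 UMIs, 3 without proliferation-marked cells, 0 without ribosomal UMIs or at 2-fold, and 2 after thinning, with depth bins combined, with the higher class threshold, without cells marked for other cell types, or among cells with a Foxp3 UMI. The causes were not tested. Nfkb2 in the S100 class reversed, at a log2 ratio of -0.48 after thinning and -0.66 among cells with a Foxp3 UMI. Members under the line also changed sign in at least 1 alternative. In the receptor class Birc3 went from 0.02 to -1.49. In the Nr4a1 or Egr1 class Nfkb2 went from 0.45 to -0.03, Relb from 0.52 to -0.37, Bcl3 from 0.06 to -0.70 and Birc3 from 0.54 to -0.15. In the S100 class Nfkb1 went from 0.12 to -0.16, Nfkbia from 0.29 to -0.0060, Nfkbid from 0.31 to -0.66, Tnfaip3 from 0.48 to -1.10, Birc3 from 0.50 to -0.30 and Bcl3 from -0.23 to 0.84. The share of cells with any member was 64.9% with a minimum of 1000 UMIs and 41.3% after thinning. The share with 2 or more members became 8.95% in all cells, 14.7% in the receptor class, 12.5% in the Nr4a1 or Egr1 class and 13.6% in the S100 class after thinning. Of all values of single members under alternatives, 2 were counted as reversed (those of Nfkb2 in the S100 class). A further 12 moved past the interval of the ratio and 274 did neither. The other values of single members listed above are within these counts. Leaving ribosomal UMIs out of the total cannot change a share of cells and was not run for shares. Restricting to cells with a Foxp3 UMI, and the share of cells without marked cells, were alternatives chosen after seeing the data. No paired analysis was possible because there is 1 library.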
